A study of Mus musculus with 4 samples.

Results

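Genes of fatty acid oxidation and of its coactivator PGC-1 alpha were examined in pancreatic islets, where the endocrine cells of the pancreas lie. The members are 36 genes chosen by symbol in 5 roles, and 32 of them were measured, out of 22180 genes with a probeset (a set of probes that reads a transcript) of their own. Acsl1, Acsl3, Cpt1b and Ucp2 had no probeset paired with a single symbol in the annotation used and were not analysed here. Islets came from C57BL/6 mice aged 5 to 6 months, either WT littermates or 41 Tg mice, which carry a transgene of GPR41, a receptor for short-chain fatty acids whose mouse gene is Ffar3. Each group had 2 Affymetrix Mouse Gene 2.0 ST arrays, called biological replicates in the titles without a statement of whether each holds islets of 1 mouse or several, so that p-values measure only the spread between these samples. All islets had been kept in RPMI medium when RNA was taken, and the promoter that drives the transgene was not known from the labels. No treatment, fasting state or sex separates the arrays in the labels.

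Mitochondria shorten fatty acids stepwise to acetyl-CoA in a repeated cycle of reactions, after the acids have been taken up, joined to coenzyme A and carried across the inner membrane as carnitine esters. PGC-1 alpha, encoded by Ppargc1a, has no DNA-binding domain of its own and raises transcription through nuclear receptors such as PPAR alpha and the estrogen-related receptors. In many tissues its gene is induced by cAMP through the factor CREB, and GPR41 is known to couple to inhibitory G proteins, which lower cAMP. In islets, fatty acid oxidation is a fuel source during fasting, and forced PGC-1 alpha expression in beta cells is known to lower insulin secretion.

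The sequences upstream of the 3 members that differed most between the groups are shown because the families of factors above bind short elements in such regions. RefSeq promoter windows (GRCm38.p6) matched 32 of the 36 symbols. Ppargc1b, Cpt1b, Decr1 and Acaa2 had no entry. The 250 bases before the start of Ppargc1a lie at chr5:51567726-51567975, those of Ehhadh at chr16:21787835-21788084 and those of Cd36 at chr5:17835897-17836146, all on the minus strand. Capitals mark the core of the cAMP response element (TGACG, or CGTCA on the other strand) and the core of nuclear receptor elements (AGGTCA, or TGACCT on the other strand).
Ppargc1a: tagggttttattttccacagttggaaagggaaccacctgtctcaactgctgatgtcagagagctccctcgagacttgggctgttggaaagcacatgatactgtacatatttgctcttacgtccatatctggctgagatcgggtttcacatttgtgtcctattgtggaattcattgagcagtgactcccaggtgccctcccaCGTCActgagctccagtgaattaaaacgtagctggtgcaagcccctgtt
Ehhadh: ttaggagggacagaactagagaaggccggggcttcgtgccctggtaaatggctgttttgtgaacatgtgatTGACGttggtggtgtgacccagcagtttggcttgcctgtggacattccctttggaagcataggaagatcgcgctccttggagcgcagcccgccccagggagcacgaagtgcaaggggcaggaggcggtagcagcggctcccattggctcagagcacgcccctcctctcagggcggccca
Cd36: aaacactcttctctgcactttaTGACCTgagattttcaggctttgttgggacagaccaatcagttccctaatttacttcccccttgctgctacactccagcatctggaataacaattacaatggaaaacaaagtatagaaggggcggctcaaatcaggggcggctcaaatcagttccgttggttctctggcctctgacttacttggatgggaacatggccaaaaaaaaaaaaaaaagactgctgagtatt
The Ppargc1a window held 1 cAMP response core, 49 to 45 bases before the start, and that of Ehhadh held 1, 179 to 175 bases before it. The Cd36 window held 1 nuclear receptor core, 228 to 223 bases before the start. Such cores are common: 17.8% of all 32851 windows of this length held the first and 14% the second on either strand. Of the 40 windows of the 32 matched members, 8 held the first and 7 the second. The full palindrome TGACGTCA, which contains the first core on both strands, stood in 1.55% of all windows and in 0 of the 40 member windows. Only the 1 window on record for each of these 3 genes was read, and other start sites of the genes were not examined. A match is a description of letters and not of a bound site.

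Ffar3 checked the labels, reading 7.09 and 6.47 in WT and 11.02 and 10.98 in Tg on the log2 scale. Array medians lay between 6.43 and 6.47, and Pearson's r over all probesets was 0.986 to 0.994 between arrays. Islet hormone genes read high, with Ins2 at 12.46 to 12.59 and Gcg at 13.45 to 13.64 on the 4 arrays. Acinar genes read high too, with Ctrb1 at 13.56 to 13.89 and Cpa1 at 13.07 to 13.73. Of 11 measured acinar markers, 9 averaged above the median gene. Their list mean was lowest in WT replicate 1 (10.67) and highest in WT replicate 2 (11.62). Differences are Tg minus WT in log2 units of the deposited values, and signals of different probesets are not compared as amounts of RNA.

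Of the 32 measured members, 1 passed an adjusted p under 0.05 over all genes in limma, the coactivator gene Ppargc1a, which fell, against 0.897% of all genes (0.672% higher and 0.225% lower). An unadjusted p under 0.05 was reached by 6 members, 2 higher (Cd36 and Ehhadh) and 4 lower (Ppargc1a, Cpt1c, Echs1 and Eci2), against 11.8% of all genes (6.13% higher and 5.72% lower). A difference of at least 1.5-fold besides, with p-values still unadjusted, was found for 3 members, Ppargc1a lower and Cd36 and Ehhadh higher, against 3.48% of all genes (2.35% higher and 1.13% lower). The arrays of the groups did not overlap for 14 members, 8 higher and 6 lower in Tg, which is near the 42.3% of all genes (18.6% higher and 23.7% lower). The median difference of the members was 0.0071 and that of all genes -0.02. In sign, 18 members were higher and 14 lower in Tg, where 45.7% of all genes were higher. With arrays centred on their medians, 13 members were higher and 19 lower, against 40.7% of all genes higher. Quantile normalisation run once more gave 20 higher and 12 lower, against 43.8% of all genes higher. The members' balance of signs thus turned with centring and not with the repeated quantile normalisation.

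**Figure D1:**
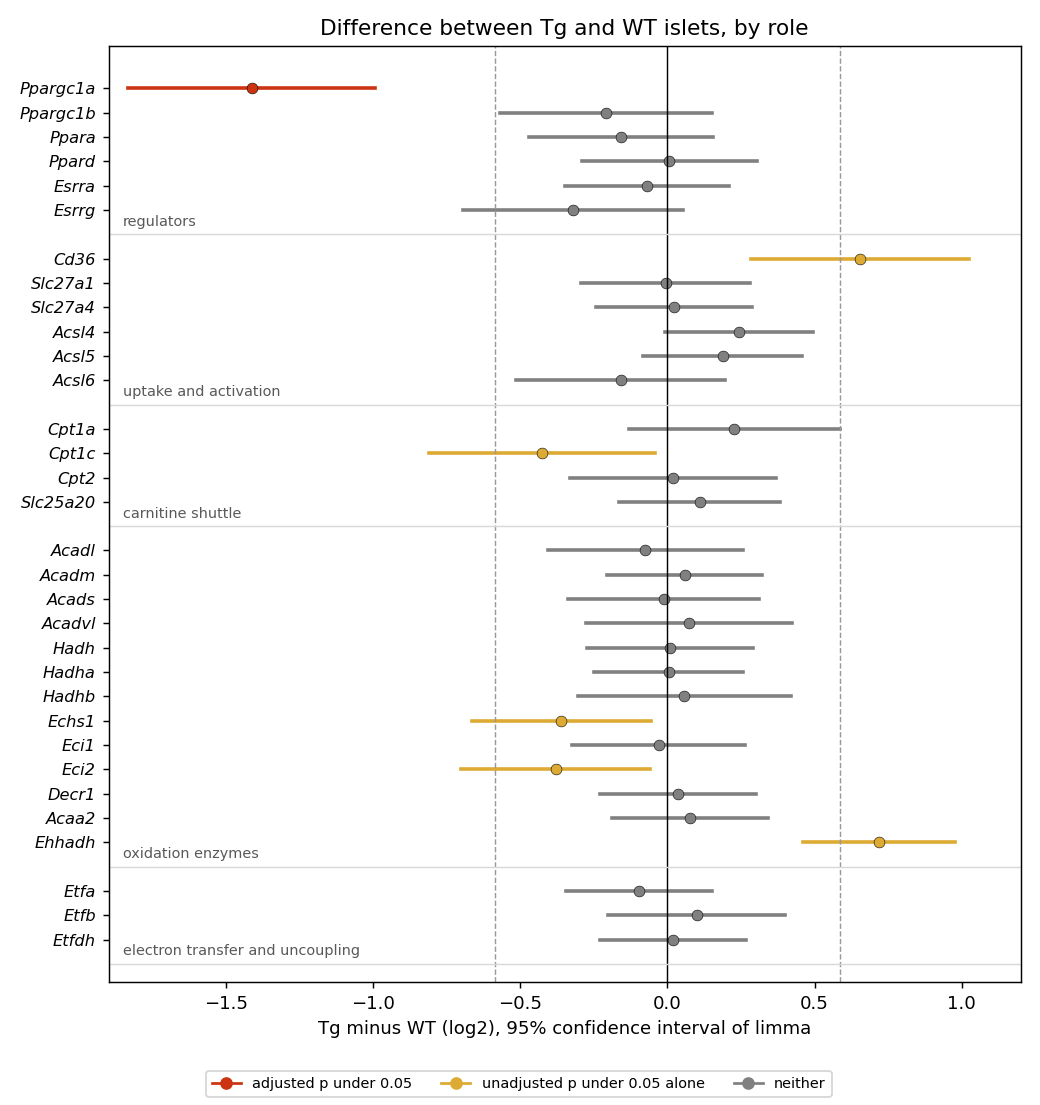
Difference between Tg and WT islets (x axis, log2 units) for the 32 measured members in 5 roles, with points for limma's estimate from 2 arrays a group, bars for the 95% confidence interval and dashed lines at 1.5-fold in either direction. Ppargc1a, at -1.41, is the only member past an adjusted p of 0.05 (red), and most intervals lie between the dashed lines.

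The intervals were narrow for most members, as they were for most genes. Their widths rest in part on a spread that limma shares over all genes (3.76 prior against 2 residual degrees of freedom). No member had an SE below 0.10, however close its replicates. For 24 of 32 members the 95% confidence interval lay wholly inside 1.5-fold in either direction, a log2 limit of 0.58, against 77.0% of all genes. The other 8 were Ppargc1a, Esrrg, Cd36, Cpt1a, Cpt1c, Echs1, Eci2 and Ehhadh. Between the WT arrays members differed by a median of 0.15, and between the Tg arrays by 0.11, while the median size of the group difference was 0.09. For 9 members the group difference was larger than the gene's own gap between replicates in both groups, a share of 28.1% against 30.3% of all genes.

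Among the regulators, Ppargc1a read 7.15 and 6.69 in WT and 5.49 and 5.53 in Tg. Both Tg arrays lay more than a log2 unit below the lower WT array, and they differed from each other far less than the WT arrays did. Ppargc1a fell 2.66-fold (difference -1.41, SE 0.17, 95% confidence interval -1.83 to -0.99, limma adjusted p = 0.034). The Tg values lay below 6.53, the median level of all genes, where array signals compress differences. Without Tg replicate 1 the adjusted p was 0.206 (difference -1.40) and without Tg replicate 2 it was 0.148 (difference -1.43), whereas the call held without either WT array. Over 13 alternatives the difference lay between -1.65 and -1.18 and the adjusted p between 0.015 and 0.542.

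The median of the 6 regulators was -0.18, moving to -0.29 without WT replicate 2, -0.12 without WT replicate 1 and -0.10 without Tg replicate 1. The remaining 5 regulators did not pass the test, and 4 of them had negative differences, or all 5 with arrays centred. Ppargc1b, which encodes the related coactivator PGC-1 beta, was at -0.21 (SE 0.15), with WT replicate 1 at 7.06 above the other 3 arrays, which lay between 6.63 and 6.72. Ppara, the fatty acid-activated receptor that drives oxidation genes in liver, read 5.90 and 5.83 in WT and 5.58 and 5.83 in Tg. All these values lay below the median level of all genes, where differences may be compressed. The groups overlapped (difference -0.16, 95% confidence interval -0.47 to 0.15, adjusted p = 0.711 in limma). Ppard, a broadly expressed receptor of the same family, read 9.28 and 9.41 in WT and 9.26 and 9.44 in Tg. Its difference of 0.0068 had an interval of -0.29 to 0.30. The estrogen-related receptors, partners of PGC-1 alpha on mitochondrial genes, were at -0.07 for Esrra and -0.32 for Esrrg. Esrrg read 7.39 and 7.22 in WT and 7.16 and 6.81 in Tg, so its groups did not overlap, with an adjusted p of 0.490 in limma. Its difference was -0.49 without Tg replicate 1 and -0.15 without Tg replicate 2.

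Most markers of alpha, delta and PP cells stood lower in Tg beside Ppargc1a. Of 11 measured markers 10 were lower, with a median of -0.34 and 0 past the adjusted threshold in limma (5 at an unadjusted p under 0.05). The exception was the PP cell hormone gene Ppy at 0.06. The 10 lower markers ran from -0.15 for the alpha cell hormone gene Gcg to -0.94 for Etv1. The list mean of the 11 markers was 10.45 and 10.19 in WT and 9.87 and 9.91 in Tg. From highest to lowest, this is the order of the arrays for Ppargc1a too. Beta cell markers were lower for 8 of 13, with a median of -0.05 and 0 past the adjusted threshold in limma. An unadjusted p under 0.05 was reached by 2, Ucn3 at -0.60 and Slc30a8 at -0.33, both with groups that did not overlap. The list means were 11.002 and 10.759 in WT and 10.76 and 10.85 in Tg. The part of these markers in the Ppargc1a result was not tested. In islets measured whole, fewer cells of a type and less RNA per cell cannot be told apart.

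**Figure D2:**
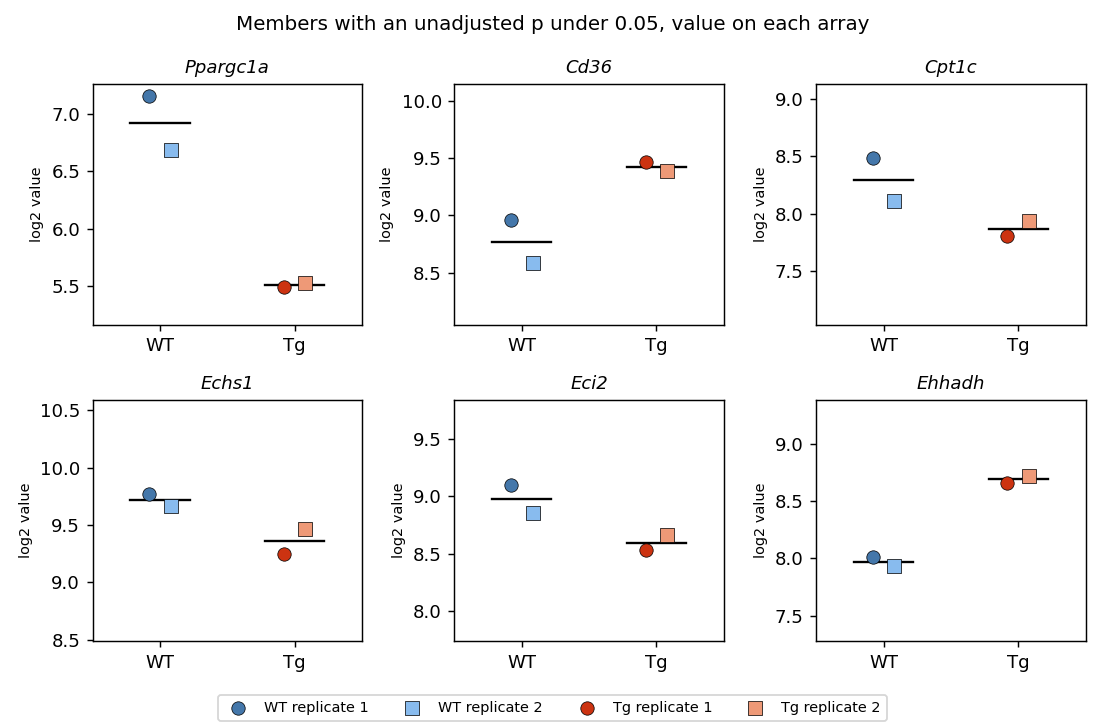
Deposited log2 values on each array (y axis, the same span of 2.1 log2 units in each panel) for the 6 members with an unadjusted p under 0.05, with bars at the group means of 2 arrays. Ppargc1a shows the widest gap between WT and Tg, and Ehhadh has the closest replicates relative to its gap.

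Uptake and activation genes had no member past the adjusted test, and their median was 0.11. Cd36, a fatty acid translocase of the plasma membrane, read 8.96 and 8.59 in WT and 9.46 and 9.39 in Tg. Both Tg arrays were above both WT arrays, by 1.57-fold on average (difference 0.65, SE 0.15, 95% confidence interval 0.28 to 1.02), with an adjusted p of 0.166 in limma. Its difference was 0.47 without WT replicate 2 and 0.84 without WT replicate 1. Cd36 is also a known product of macrophages and of capillary endothelium.

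Markers listed for both cell types were higher in Tg, the first list covering other leukocytes too. Of 19 measured macrophage and leukocyte markers 19 were higher, with a median of 0.75, and 1 passed the adjusted test, Coro1a, whose adjusted p was 0.080 to 0.167 with any 1 array left out (0.080 without WT replicate 1, 0.090 without WT replicate 2, 0.167 without Tg replicate 1 and 0.148 without Tg replicate 2). Their list mean was 7.12 and 6.98 in WT and 7.96 and 7.71 in Tg. The smallest differences were those of Itgam (0.21), Adgre1 (0.22) and Cd14 (0.25), and the groups of Adgre1 and Cd14 overlapped. The general leukocyte marker Ptprc had the largest at 1.58, and the lymphocyte markers Cd79a and Cd3e were at 1.28 and 0.90. Of 16 endothelial markers 16 were higher, with a median of 0.34 and 0 past the adjusted test in limma (9 at an unadjusted p under 0.05), and list means of 7.82 and 7.63 in WT and 8.263 and 7.999 in Tg. In all 3 cases the order of the arrays from the lowest was WT replicate 2, WT replicate 1, Tg replicate 2 and Tg replicate 1. The dimmest marker averaged 5.81 in the first list and 5.54 in the second, above the first quartile of every array (4.93 to 4.98). The macrophage marker Cd68 read 9.49 to 10.31 and the endothelial Cdh5 9.84 to 10.70. Their part in the Cd36 result was not tested. Of 8 measured adipocyte markers 6 were higher in Tg, with list means of 6.34 and 6.35 in WT and 6.56 and 6.53 in Tg. Their median was 0.13, with 0 past the adjusted test in limma and 1, Fabp4, at an unadjusted p under 0.05. Fabp4 was at 1.07, and the next largest difference was that of Retn at 0.17. Adipoq (4.30 to 4.46) and Lep (4.88 to 5.27) lay below the median gene on the 4 arrays, while Pparg (10.38 to 10.63), Fabp4 (7.84 to 9.38) and Lipe (6.58 to 6.63) averaged above it. Mesenchymal markers were higher for 10 of 10 (median 0.25, 0 past the adjusted test in limma and 3 at an unadjusted p under 0.05). Their list means were 6.63 and 6.72 in WT and 7.10 and 7.02 in Tg. Dcn had the largest difference at 1.79 (SE 0.26, limma adjusted p = 0.054). Col1a1, Col1a2, Col3a1 and Lum lay between 0.03 and 0.10, with overlapping groups. The part of the adipocyte and mesenchymal lists in the Cd36 result was not tested.

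The fatty acid transporters Slc27a1 (difference -0.0061, 95% confidence interval -0.29 to 0.28) and Slc27a4 (0.02, interval -0.24 to 0.29) had overlapping groups. The acyl-CoA synthetases, which trap fatty acids as coenzyme A esters, had differences of both signs. Acsl4, which prefers arachidonic acid, read 10.36 and 10.35 in WT and 10.57 and 10.63 in Tg. Its groups did not overlap, and its replicates lay close together, but the difference of 0.24 (SE 0.10) did not pass (limma adjusted p = 0.433). Acsl5 was at 0.19, with both Tg arrays above both WT arrays. Acsl6, a synthetase known from brain, read 7.98 and 7.77 in WT and 7.85 and 7.58 in Tg, with overlapping groups (difference -0.16). A dimmer second probeset of Acsl6 had the same difference of -0.16, at 3.74 to 4.21.

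In the carnitine shuttle, Cpt1a, the outer-membrane transferase that sets the rate of entry into mitochondria, read 10.24 and 10.25 in WT and 10.65 and 10.29 in Tg. Tg replicate 1 stood apart from the other 3 arrays. The difference of 0.23 (95% confidence interval -0.13 to 0.59) did not pass, and it was 0.05 without that array. Cpt1c, the neuronal isoform of the endoplasmic reticulum with little transferase activity, had the opposite sign. It read 8.49 and 8.11 in WT and 7.80 and 7.94 in Tg, so that both Tg arrays were lower (difference -0.43, SE 0.15, limma adjusted p = 0.374, unadjusted p = 0.035). Without WT replicate 2 its difference was -0.62, and without WT replicate 1 it was -0.24. The inner-membrane transferase Cpt2 was at 0.02 (95% confidence interval -0.33 to 0.37) and the carnitine-acylcarnitine carrier Slc25a20 at 0.11 (-0.16 to 0.38). The median of these 4 genes was 0.06, and it was 0.18 without WT replicate 1 and -0.054 without WT replicate 2.

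**Figure D3:**
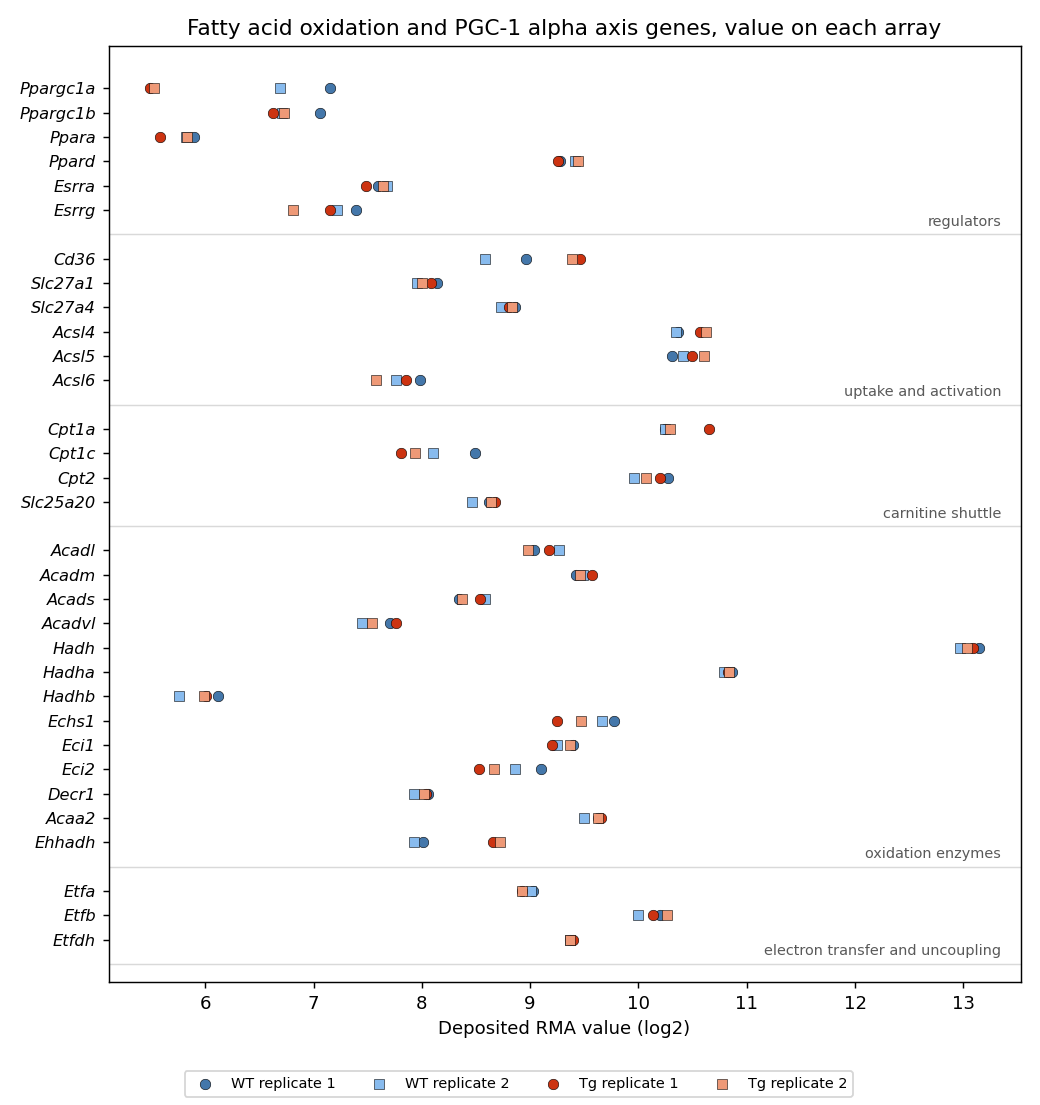
Deposited log2 value on each of the 4 arrays (x axis) for the 32 measured members, by role, with blue symbols for WT and red for Tg. WT and Tg symbols lie together for most genes and are apart for Ppargc1a, Cd36 and Ehhadh, and signals of different genes are not comparable as amounts of RNA.

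The 13 oxidation enzymes had a median of 0.0075 and 0 members past the adjusted test in limma, with 3 at an unadjusted p under 0.05. Ehhadh, the bifunctional hydratase and dehydrogenase of peroxisomes and a classical target of PPAR alpha, read 8.01 and 7.93 in WT and 8.66 and 8.72 in Tg. The replicates of each group lay close together, and the groups far apart. Ehhadh was 1.65-fold higher in Tg (difference 0.72, SE 0.10, 95% confidence interval 0.46 to 0.98) and missed the threshold narrowly (limma adjusted p = 0.056). It passed with a variance trend (adjusted p = 0.037), with a robust prior added (0.026) and when only genes above the median level were tested (0.032). With each array left out its difference stayed between 0.68 and 0.76 and the adjusted p lay between 0.113 and 0.274. Over 14 alternatives the adjusted p ranged from 0.026 to 0.472.

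Of the 12 oxidation enzymes other than Ehhadh, 10 had differences between -0.08 and 0.08, while Echs1 was at -0.36 and Eci2 at -0.38. Hadh, the dehydrogenase of medium and short chains whose loss causes excess insulin secretion, read 13.14 and 12.97 in WT and 13.09 and 13.04 in Tg. The groups overlapped (difference 0.0075, 95% confidence interval -0.27 to 0.29), close to the highest values of the arrays (13.67 to 13.89), where differences may be compressed. Hadha and Hadhb encode the subunits of the trifunctional protein of long chains, and their differences were 0.0042 and 0.06. They lie head to head on opposite strands, with start sites 273 bases apart and RefSeq promoter windows that overlap by 228 of 300 bases. Hadhb read 6.12 and 5.76 in WT and 6.01 and 5.99 in Tg, with both Tg arrays between the WT arrays. All these values lay below the median level of all genes, 6.53, where differences may be compressed.

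The acyl-CoA dehydrogenases, which take the first step of the cycle for chains of different length, ranged from -0.08 for Acadl to 0.07 for Acadvl. Acadm was at 0.06 and Acads at -0.01, and the groups of all 4 overlapped. The thiolase Acaa2, which cleaves off acetyl-CoA, was at 0.08, and Decr1, a reductase for unsaturated chains, at 0.04. For Echs1, the short-chain hydratase of the second step, the arrays read 9.77 and 9.67 in WT and 9.25 and 9.47 in Tg. Both Tg arrays were lower (difference -0.36, SE 0.12, limma adjusted p = 0.348). Eci2, an isomerase for unsaturated chains found in peroxisomes as well, read 9.10 and 8.86 in WT and 8.53 and 8.67 in Tg. It too had no overlap (difference -0.38, SE 0.13, limma adjusted p = 0.348), whereas the mitochondrial isomerase Eci1 was at -0.03 with overlapping groups. That Eci1 and Eci2 differ in response was not tested.

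Electrons from the first step pass through the electron transfer flavoprotein to the respiratory chain. Its alpha subunit Etfa read 9.03 and 9.01 in WT and 8.92 and 8.93 in Tg, a difference of -0.10 (95% confidence interval -0.34 to 0.15) between groups that did not overlap. The beta subunit Etfb read 10.199 and 9.999 in WT and 10.14 and 10.26 in Tg, with overlapping groups (difference 0.10). The acceptor Etfdh was at 0.02, its 4 arrays lying between 9.37 and 9.40.

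**Figure D4:**
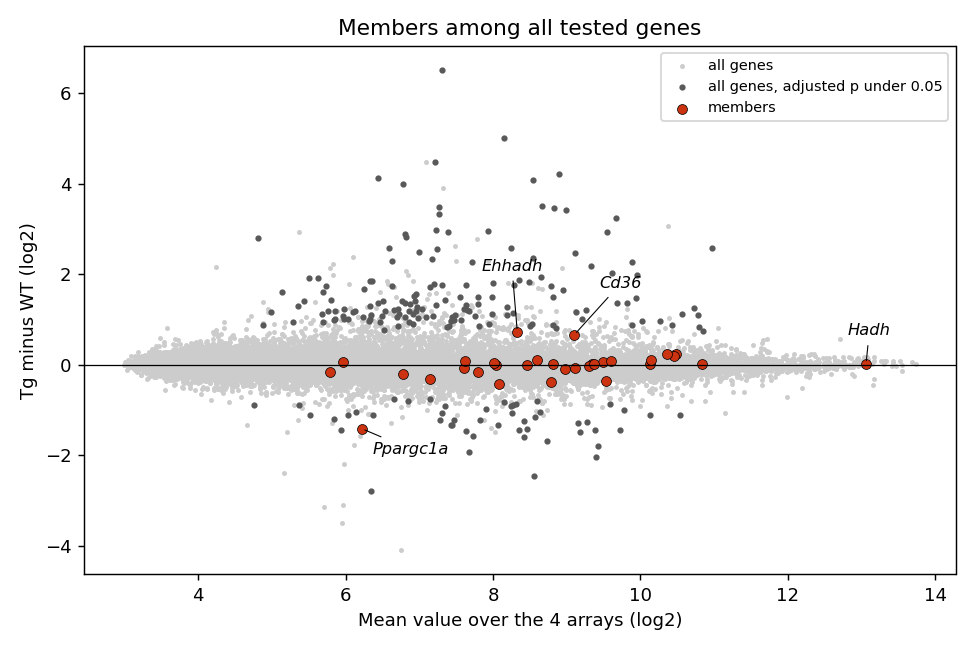
Difference between Tg and WT (y axis, log2 units) against the mean of the 4 arrays (x axis, log2 value) for all 22180 tested genes in grey, those past an adjusted p of 0.05 in dark grey and the 32 members in red. All but a few members lie within the band of genes around 0, and Ppargc1a lies below it.

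Genes around the members were taken from 5 lists, some genes standing in more than 1 list. Of their 142 measured genes 1 passed the adjusted test, Ivd, against 0.897% of all genes. In sign, 47 were higher and 95 lower, where 45.7% of all genes were higher. The median was -0.07 against -0.02 for all genes, and all 5 list medians stayed below 0 under both further scalings. Past 1.5-fold and an unadjusted p under 0.05 lay 2 higher and 3 lower genes, against 3.48% of all genes (2.35% higher and 1.13% lower). Eci3 and Vnn1, named below, were chosen after their values were seen.

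Of 45 other fatty acid oxidation genes, 17 were higher and 28 lower (median -0.07). Ivd, the isovaleryl-CoA dehydrogenase of leucine breakdown, read 9.65 and 9.44 in WT and 10.57 and 10.44 in Tg and rose (difference 0.96, SE 0.12, limma adjusted p = 0.041). Leaving out any 1 array ended this call (limma adjusted p of 0.065 without WT replicate 1, 0.113 without WT replicate 2, 0.248 without Tg replicate 1 and 0.148 without Tg replicate 2), and over 14 alternatives the difference lay between 0.86 and 1.07 and the adjusted p between 0.011 and 0.529. Fabp4, a fatty acid-binding protein of adipocytes, macrophages and capillary endothelium, was at 1.07 (SE 0.22, adjusted p = 0.138 in limma). Markers of these cell types are given above, and their part in the Fabp4 result was not tested. Slc25a29, a mitochondrial carrier of basic amino acids, was at -0.44, and Eci3, a further isomerase gene, at -0.86 (limma adjusted p = 0.093). Other peroxisomal genes had both signs. Crot, a carnitine transferase, was at 0.32 and the oxidase Acox3 at 0.17, while the thiolases Acaa1a and Acaa1b were at -0.28 and -0.29 and the bifunctional enzyme Hsd17b4 at -0.14. These 5 were picked after their values were seen, and none passed the adjusted test in limma.

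Of 20 PPAR target genes, 7 were higher and 13 lower (median -0.10), and 0 passed the adjusted test in limma, with 3 at an unadjusted p under 0.05. Pdk4, the kinase that shuts off pyruvate dehydrogenase when fatty acids are burned, read 9.79 and 9.60 in WT and 8.87 and 9.12 in Tg. Both Tg arrays were lower (difference -0.70, SE 0.14, limma adjusted p = 0.118). The thioesterase Acot2 was at -0.36, Tmem135 at 0.19 and Vnn1, a pantetheinase whose gene read below the median level, at -0.76 (limma adjusted p = 0.079). Ehhadh thus had the opposite sign to Pdk4, Acot2 and Vnn1, and the sign of the 7 higher genes, Tmem135 among them. That Ehhadh differs in response from any of these genes was not tested.

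Upstream and partner genes of PGC-1 alpha were higher for 12 and lower for 23 of 35, with a median of -0.09 and 0 past the adjusted test in limma (2 at an unadjusted p under 0.05). The CREB coactivator gene Crtc3 was at -0.34 (SE 0.11), the acetyltransferase gene Kat2a, whose product acetylates PGC-1 alpha, at -0.24, and Prkaa2, a catalytic subunit of AMP-activated kinase, at -0.26. Both Tg arrays were below both WT arrays for each of them, with an unadjusted p of 0.021 for Crtc3, 0.055 for Kat2a and 0.057 for Prkaa2 in limma. Camk4, a kinase gene below the median level that was chosen after its value was seen, had the smallest p of the list and was at 0.42 (SE 0.11, limma adjusted p = 0.215), with both Tg arrays above both WT arrays. Of 29 mitochondrial biogenesis genes 8 were higher and 21 lower (median -0.05), their differences ranging from -0.32 for the transcription factor Mterf3 to 0.19, and 0 passed the adjusted test in limma (1 at an unadjusted p under 0.05). The mitochondrial helicase gene Twnk was at -0.24 and the fusion gene Mfn1 at -0.21. Of 16 ketone body and acetyl-CoA genes 3 were higher and 13 lower (median -0.11), with Pdk4 as given, the monocarboxylate transporter gene Slc16a6 at 0.37 and Aacs at -0.19, and 0 passed in limma (3 at an unadjusted p under 0.05).

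**Figure D5:**
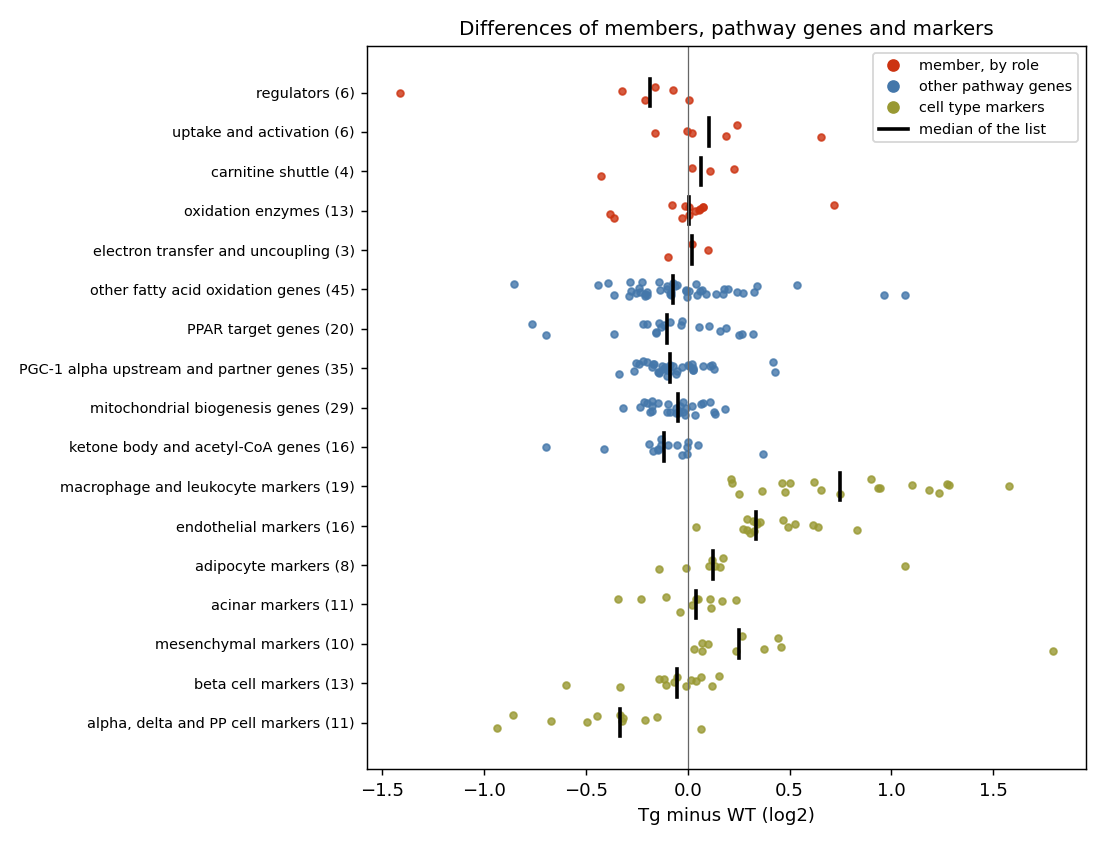
Difference between Tg and WT (x axis, log2 units) of each measured gene in the 5 member roles (red), 5 lists of related genes (blue) and 7 lists of cell type markers (olive), with the number of genes in brackets and black bars at the medians. The macrophage and leukocyte markers lie highest, with a median of 0.75, and the alpha, delta and PP cell markers lowest, with a median of -0.34, while the medians of roles and related genes lie between -0.18 and 0.11.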

How the data were processed

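The authors deposited log2 values of 4 arrays, normalised by RMA (background correction, quantile normalisation, probe summary) with Partek named beside it, per the submitters' processing notes. No genome build or software version was known from the labels. Labelling took 250 ng of total RNA, per the labels' protocols.

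The platform annotation paired 23521 of 27037 probesets with 1 gene symbol, 1814 with several and 1702 with none. Only the first were used, and the brightest by mean over the 4 arrays stood for a gene, leaving 22180 genes with no filter on dim ones. Differences came from limma 3.58.1 (lmFit, then eBayes) run in R 4.3.3, with 2 residual and 3.76 prior degrees of freedom and Benjamini-Hochberg adjustment over all genes. An exact two-sided permutation test of 2 arrays against 2 cannot go below 0.333, and the number of arrays limits the precision. The fit was tested on simulated data.

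Members and lists were chosen with earlier results of these data known. Values in every array are given for members past a threshold (adjusted p, unadjusted p or 1.5-fold), for the brightest and dimmest member of a role and for Ppargc1a, Ppara, Cd36, Cpt1a, Cpt1c and Hadh. From a related list the called genes and up to 3 with the smallest p above the median level are named. Of 246 listed symbols 226 were measured, Mut and Pc under newer or other symbols, and 1 alias of a member was dropped. Alternatives changed probesets, level filter, normalisation, variance model, replicate block and arrays.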

Additional observations from a re-analysis of the deposited data

How the results depend on the processing

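All alternatives were planned, except that running them on Ivd and Coro1a was chosen after seeing the data. Over all genes, 199 passed the adjusted threshold, against 347 with a variance trend and robust prior, 24 with the replicate block and, leaving out single arrays, 38 to 135. The unmoderated model gave 0, with 1928 genes at an unadjusted p under 0.05 where limma had 2627. Among members the count of 1 became 2 with a variance trend, 2 with a robust prior added (Ppargc1a and Ehhadh), 0 with the replicate block, 0 without moderation and 0 to 1 when single arrays were left out. With only genes above the median level tested, Ppargc1a was not in the fit and Ehhadh was the 1 call. The 1.5-fold count of 3 became 1 at a 2-fold limit, 2 without moderation and 2 with the level filter. It stayed at 3 with each array left out, Cpt1c standing in for Cd36 without WT replicate 2. Ppargc1a kept its sign in 13 of 13 alternatives and its call in 9. The adjusted p of Ppargc1a was 0.145 in limma with the replicate block and 0.542 without moderation, at an unchanged difference of -1.41. Members not called gained a call in 3 of 432 alternatives, all Ehhadh (adjusted p = 0.208 with the replicate block and 0.472 without moderation), and 15 of them turned sign at least once. Leaving out single arrays moved the median of all members from 0.0071 to between -0.038 and 0.043, that of the regulators from -0.18 to between -0.29 and -0.10, and that of the carnitine shuttle from 0.06 to between -0.054 and 0.18. The number of arrays limits the precision, and signals near background compress differences. The gap between replicates 1 and 2 in WT correlated at -0.063 with that in Tg across genes, so the shared replicate numbers were not taken as pairs.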
